A study of Mus musculus with 6 samples.

Results

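The immunoglobulin light chain loci of the mouse are Igk on chromosome 6 and Igl on chromosome 16. CpG positions were taken from chr6:67555000-70730000 for Igk and chr16:19020000-19265000 for Igl (GRCm38), and a position was kept where it had at least 10 reads in all 6 libraries. That left 462 positions of the 1463044 covered in all 6 libraries over the genome, out of 645 listed in the loci in any library. Each position went to the V part or to the J and C part of its locus by its nearest segment in the RefSeq table for GRCm38.p6. The Igk V part held 419 positions, the Igl V part 23 and the Igl J and C part 20, whereas the Igk J and C part held 0.

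The assay was enhanced reduced representation bisulfite sequencing. It reads bisulfite-converted DNA fragments that the enzyme MspI has cut at CCGG. The DNA came from germinal centre B cells of the spleens of C57BL/6 mice, with 3 libraries from Tet2 knock-out cells (KO) and 3 from Tet2 wild-type cells (WT). The labels give neither the kind of knock-out allele, nor the age of the mice, nor whether any were pooled. Coverage summed over the listed CpG positions was 195582108, 183417223 and 180397494 in the KO libraries, and 178955262, 174375503 and 203863392 in the WT libraries. A read over several CpGs counts at each of them, so these sums are not numbers of reads. In the Tet2 gene, 6 positions were listed in every WT library and in no KO library, and 0 the other way round, which is the direction of the labels. Of the B-cell and T-cell genes looked at to check the cell type, the start of Pax5 had 7 covered positions, at 0% to 1.60% in all libraries, and the starts of Cd79a and Cd3e had 0, so the purity of the cells could not be read from these positions.

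A light chain gene is assembled in developing B cells, when the Rag recombinase joins a V segment to a J segment that lies upstream of the constant (C) region. Enhancers in and beyond the J to C intron of Igk are known to drive its transcription and its demethylation, and somatic hypermutation in germinal centres targets the joined V region. TET2 oxidises 5-methylcytosine, a step towards its removal, and bisulfite reads 5-methylcytosine and 5-hydroxymethylcytosine alike, so each level below is their sum. Light chain joining also deletes or inverts DNA between the joined segments, and in bulk DNA the allele a read came from is unknown.

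Coverage decided which sequences could be compared. From Igkj1 to the end of the Igk region, over 7439 bp, no position was listed in any library. That stretch includes the intron between Igkj5 and Igkc at chr6:70723924-70726434, which holds the intronic enhancer. The Igk position nearest to it that was covered in all 6 libraries lay 26663 bp before Igkj1, at 70695899. The J and C part of Igk and its intronic enhancer were therefore not measured here, and the comparison asked of them has no value.

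RefSeq (GRCm38.p6) promoter windows, running from 250 bases before to 50 bases after the start of a noncoding gene, show the letters of windows with and without listed positions. The windows of Gm46961 and Gm30211 flank the Igk J and C segments, and that of Gm46962 lies in the Igk V part, 3383 bp from Igkv8-24. Capitals mark each CG, and every sequence runs 5′ to 3′ on the strand of its gene.
Gm46961 (chr6:70718827-70719126, minus strand): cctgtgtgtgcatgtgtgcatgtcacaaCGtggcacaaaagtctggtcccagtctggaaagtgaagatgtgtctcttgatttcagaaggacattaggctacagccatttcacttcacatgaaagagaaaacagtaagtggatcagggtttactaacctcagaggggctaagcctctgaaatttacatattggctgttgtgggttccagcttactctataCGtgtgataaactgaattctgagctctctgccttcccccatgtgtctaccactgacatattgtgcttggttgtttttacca
Gm30211 (chr6:70728963-70729262, plus strand): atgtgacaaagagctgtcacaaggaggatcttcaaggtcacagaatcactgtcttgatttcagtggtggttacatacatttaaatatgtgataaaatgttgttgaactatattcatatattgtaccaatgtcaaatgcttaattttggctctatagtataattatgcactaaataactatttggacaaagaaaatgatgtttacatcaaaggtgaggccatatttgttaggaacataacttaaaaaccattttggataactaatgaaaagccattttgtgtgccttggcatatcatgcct
Gm46962 (chr6:70220655-70220954, minus strand): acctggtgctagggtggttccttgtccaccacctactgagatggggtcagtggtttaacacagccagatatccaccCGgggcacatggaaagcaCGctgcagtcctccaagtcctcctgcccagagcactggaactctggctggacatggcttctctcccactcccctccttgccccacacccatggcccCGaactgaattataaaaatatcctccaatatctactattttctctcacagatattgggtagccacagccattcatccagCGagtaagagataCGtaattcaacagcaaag
The first holds 2 CG, the second 0 and the third 5. The motif CCGG, whose letters read the same on both strands and contain a CG, occurs in 1 of the 6 promoter windows in the loci, that of Gm46962. The same window was the only one with a listed position, chr6 70220877, which had 25 and 28 reads at 88.0% and 96.4% in KO replicates 2 and 3, and 21 reads at 100% in WT replicate 1. Over 32851 promoter windows of this length, 52.8% hold CCGG and 94.6% hold a CG, with a median of 7 CG.

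The measured positions lay mostly between segments. Of the 180 V, J and C segments in the loci, 1 had a covered position inside it or within 500 bp, the V pseudogene Igkv1-136. Its 4 positions averaged 96.3%, 100% and 93.9% in the KO libraries, and 97.5%, 98.6% and 94.9% in the WT libraries. The groups overlapped, and the difference of -0.247 points had an exact two-sided permutation p of 1. In Igk, a further 11 positions lay within 1 kb of a segment, 227 lay within the next 9 kb, and 177 lay farther away. Levels of the 3 positions within 1 kb of the 2 functional V segments reached were 81.9%, 83.6% and 79.4% in the KO libraries, and 73.5%, 68.1% and 68.5% in the WT libraries. Every KO library lay above every WT library there (difference 11.6 points, exact p = 0.1, the smallest that 3 against 3 libraries allow). Most of it came from 1 position near Igkv14-130, described below, which differed by 26.0 points. The other 2, near Igkv1-35, differed by 4.36 points with overlapping libraries (exact p = 0.5). The 12 positions inside or within 1 kb of V pseudogenes differed by 1.35 points (exact p = 0.6), and all 11 at 1 to 1000 bp from any segment by 4.72 points (exact p = 0.3), both with overlapping libraries.

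The Igk V part was highly methylated in both groups. Its mean level was 86.9%, 87.6% and 87.2% in the KO libraries, and 86.6%, 88.9% and 86.6% in the WT libraries. The KO values lay within the range of the WT values. The means were 87.2% ± 0.375 in KO and 87.4% ± 1.37 in WT (SD, n = 3 each), a difference of -0.132 points (exact two-sided permutation p = 1).

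The Igl V part was the most methylated of the parts. It averaged 94.8%, 95.7% and 95.2% in the KO libraries, and 93.4%, 95.1% and 92.8% in the WT libraries. One WT library lay within the KO range and the other 2 below it, and the difference was 1.46 points (95.2% ± 0.438 in KO and 93.8% ± 1.22 in WT, SD, n = 3 each, exact p = 0.2). Of its 23 positions, 21 were nearest to Iglv1 and 2 to Iglv3. The largest difference was at chr16 19113965, 28505 bp from Iglv1, with 100%, 100% and 90.7% in KO against 76.2%, 83.1% and 80.8% in WT. The KO libraries all lay above the WT libraries at that position, with an adjusted p of 0.414 in the quasi-binomial test over all CpGs. Its difference of 16.9 points was the only 1 of the 23 to reach 10 points, so the part's difference rests in part on it. The stretch of 7 positions that holds it differed by 1.14 points with overlapping libraries, and the KO mean was lower at 4 of the 7.

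The J and C part of Igl, which holds its J and C segments, averaged 91.5%, 93.2% and 92.5% in the KO libraries, and 90.6%, 92.8% and 90.9% in the WT libraries. The groups overlapped, with means of 92.4% ± 0.845 in KO and 91.4% ± 1.20 in WT (SD, n = 3 each), a difference of 0.969 points (exact p = 0.3). The 3 parts together gave adjusted p-values of 1, 0.45 and 0.45, in the order Igk V, Igl V, Igl J and C.

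None of the 20 positions was in a J or C segment. The 9 nearest to Iglj3 lay 2137 to 2321 bp from it and averaged 94.1% in KO and 94.0% in WT. The 5 nearest to Iglj2 lay 2718 to 2918 bp from it and averaged 96.3% in KO and 94.7% in WT. The 5 nearest to Iglc1, 7675 to 25674 bp away, averaged 92.0% in KO and 91.5% in WT. The last position, chr16 19174688, lay 20311 bp from Iglc4 and was the least methylated of Igl, at 51.0%, 61.9% and 66.4% in KO against 52.0%, 60% and 42.7% in WT, with overlapping groups. Enhancers of Igl were not located here, so none of these values is that of an enhancer.

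**Figure D1:**
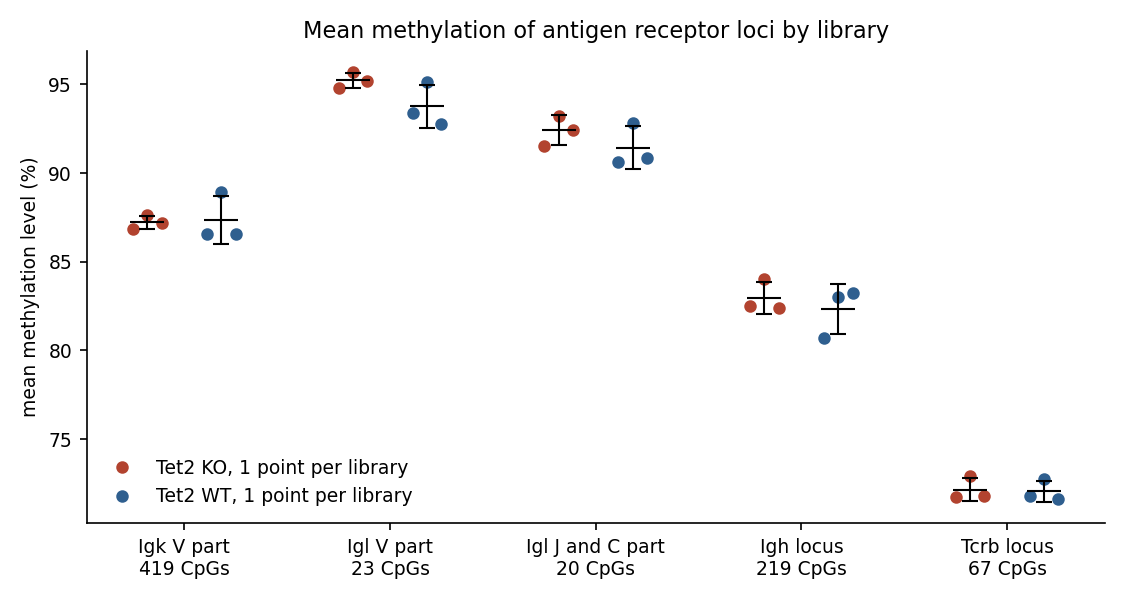
Mean methylation level (%) of the covered CpGs in each light chain part and, for comparison, in the Igh and Tcrb loci; each point is 1 library, Tet2 KO left of Tet2 WT, and the black marks are the mean ± SD of 3 libraries. The axis does not start at 0; the KO and WT points overlap in all 5 columns.

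The difference between groups was set beside the rest of the genome. Over all covered CpGs the mean was 33.8% ± 0.150 in KO and 33.0% ± 0.413 in WT, and every KO library lay above every WT library (difference 0.770 points, exact p = 0.1). The Igk V part exceeded that genome mean by 53.5 points in KO and by 54.4 points in WT, a difference of -0.902 points (exact p = 0.3). This sets unlike levels side by side. Of all covered CpGs, 60.9% had a mean level under 20%, whereas 83.5% of the Igk V positions were over 80%. The Igk V part minus the Igl V part was -7.999 points in KO and -6.40 points in WT. That gap was wider in each KO library than in any WT library (difference -1.60 points, exact p = 0.1, adjusted 0.667 over the 10 such contrasts). Igh, the heavy chain locus, averaged 83.0% in KO and 82.3% in WT over 219 positions, and Tcrb, a T-cell receptor locus, averaged 72.2% in KO and 72.1% in WT over 67.

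Position by position, 289 of the 462 had a mean level between 5% and 95% and were tested. A further 163 were above 95% and 10 were below 5%. A call needed group means 10 points or more apart and an adjusted p under 0.05. By that rule 0 of the 289 were called in either direction, beside 0.284% called higher and 0.0105% called lower among all 525213 tested CpGs. The lowest adjusted p was 0.205. With all covered positions tested, whatever their level, the lowest was 0.0416, at a difference under 10 points. At an unadjusted p under 0.05 there were 23 positions (7.96%), beside 8.7% over the genome. Of the 289 tested positions, 16 were under 0.05 and higher in KO (beside 6.47% of all tested CpGs), and 7 were under 0.05 and lower. Over the genome, 33987 of the 45692 CpGs under 0.05 were higher in KO, so most were higher there too. Of 51 tested tiles of 1 kb with at least 3 positions, 0 were called, beside 0.685% called higher and 0.00241% called lower over the genome. The lowest adjusted p of a tile was 0.219, and 4 tiles had an unadjusted p under 0.05, 2 in each direction (7.84%, beside 11.5% over the genome). A lack of calls does not show equal levels, since single positions had a median of 68 reads. The single-CpG test recovered few moderate changes in simulated reads, but those changes were rises from low levels. Recovery at the mostly high levels of these loci was not tested. At the genome shares of calls, 289 positions and 51 tiles would hold few calls or none. The counts of 0 therefore cannot tell the loci from the genome. Of the 462 positions, 392 had a mean level over 80%, which leaves limited room for a rise of 10 points.

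The KO mean was the higher one at 47.8% of the 289 tested positions, beside 58.9% over the genome, and at 56.9% of the tiles, beside 64% over the genome. Group means differed by at least 10 points upward at 37 positions and downward at 36 (12.8% and 12.5%, beside 16.1% upward and 7.47% downward over the genome). All KO libraries lay above all WT libraries at 15 tested positions (5.19%, beside 8.3% over the genome) and below them at 10 (3.46%, beside 4% over the genome). The share with a higher KO mean was 46.4% to 52.6% when any 1 library was left out. The corresponding genome share was 54.9% to 59.3%.

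Partly methylated positions were compared apart, since a difference has more room there. The 60 light chain positions with a mean level of 20% to 80% averaged 66.5%, 68.1% and 69.5% in KO, and 63.8%, 74.5% and 65.0% in WT. WT replicate 2 lay above every KO library and the other 2 WT libraries lay below them. The difference was 0.255 points (exact p = 1), beside 4.09 points over the 147766 such CpGs of the genome (59.1% ± 0.333 in KO and 55.0% ± 1.82 in WT, SD, n = 3 each, exact p = 0.1). Without WT replicate 2 the light chain difference was 3.59 points, beside 4.41 points over the genome. Omitting WT replicate 1 gave -1.72 points, omitting WT replicate 3 gave -1.11 and omitting KO replicate 3 gave -0.492, so the sign of the light chain value turns with the library left out. The difference between the light chain and the genome in this class was -3.84 points with all libraries (exact p = 0.4), -0.815 without WT replicate 2 (exact p = 0.7) and -5.92 without WT replicate 3 (exact p = 0.1). The 392 light chain positions over 80% differed by -0.0624 points (exact p = 0.9), beside 0.746 over the genome (exact p = 0.2). The contrast of these was -0.81 points (exact p = 0.4). The 10 under 20% had 1.33%, 0.690% and 0.357% in KO against 0.278%, 0% and 0% in WT. Every KO library lay above every WT library there (0.699 points, exact p = 0.1), beside 0.231 points over the genome (exact p = 0.1). The contrast of these was 0.468 points (exact p = 0.2), and 0.206 without KO replicate 1 (exact p = 0.4). Several of the 10 were at 0% in all 6 libraries, so the difference rests on few reads at the others.

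**Figure D2:**
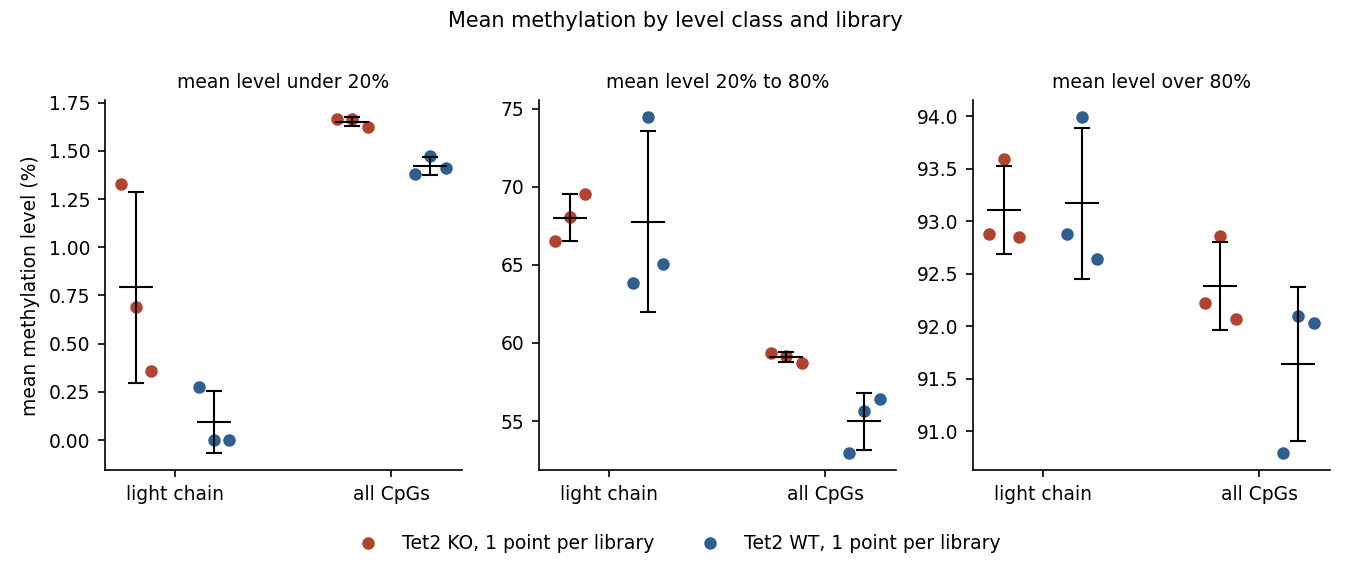
Mean methylation level (%) of light chain CpGs and of all covered CpGs in 3 classes of mean level; each point is 1 library, Tet2 KO left of Tet2 WT, with mean ± SD of 3 libraries, and each panel has its own axis, which does not start at 0. In the middle class WT replicate 2 lies at 74.5% for the light chain, above the 3 KO libraries, while over all CpGs the KO libraries lie above the WT libraries.

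The largest rises with groups that did not overlap were single positions. At chr6 69639083, 6905 bp from Igkv4-54, levels were 93.8%, 100% and 100% in KO against 73.0%, 76.7% and 50% in WT, on 19 to 60 reads. The difference was 31.4 points, with an adjusted p of 0.492. The other strand of the same CpG, 69639082, went the other way (-23.0 points), with 83.0%, 47.1% and 84.2% in KO against 83.3%, 100% and 100% in WT, and with strands added the difference was 9.41 points (adjusted p = 0.911). A neighbour on the same strand, 69639117, differed by 19.98 points, with 98.04%, 100% and 100% in KO against 65.7%, 86.7% and 85.7% in WT. Its other strand, 69639116, was at 0% in all 6 libraries, and with strands added the difference was 9.99 points (13.2 points on its own strand without WT replicate 1). At chr6 70562317, 7877 bp from the V pseudogene Igkv3-11, all 3 KO libraries were at 100%, against 81.5%, 70.2% and 66.7% in WT (27.2 points, adjusted p = 0.408). None of these adjusted values passed the threshold.

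Nearest to a functional V segment was chr6 67792016, 505 bp from Igkv14-130. It had 55.3%, 57.7% and 71.2% in KO against 35.1%, 25.3% and 45.9% in WT, a difference of 26.0 points with an adjusted p of 0.406. Positions 69124704 and 69126137, 13162 and 11729 bp from the V pseudogene Igkv13-76, differed by 23.7 and 17.7 points, and the second by 8.57 points with strands added. Positions 68949107, 9040 bp from Igkv13-84, and 67745278, 14422 bp from Igkv1-132, differed by 19.5 and 17.3 points. Without WT replicate 3, 68949107 differed by 10.8 points. In all 8 the KO libraries lay above the WT libraries.

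Among positions whose groups did not overlap, the largest falls were at chr6 68398818 (-17.5 points), 69803381 (-17.1 points), 70067922 (-16.9 points) and 70620599 (-14.3 points). In that order, they lay 26787 bp from Igkv16-104, 11250 bp from Igkv12-44, 6102 bp from Igkv6-32 and 12563 bp from Igkv3-7. At 70067922, levels were 69.7%, 59.1% and 57.9% in KO against 74.2%, 84.3% and 78.8% in WT. At 68398818 the KO libraries ranged from 57.1% to 87.2%, and the lowest rested on 14 reads. Without that library, KO replicate 1, the difference was -7.53 points. At 70620599 it was -8.78 points without KO replicate 2. Larger falls, all with overlapping groups, were found at 68495259, 68495214 and 69639082 (given above, -23.0 points). The fall of -23.5 points at 68495259 came from KO replicate 2 at 29.4%, with the other 5 libraries at 100%. At 68495214 it was -20.2 points, with 90.9%, 73.5% and 43.5% in KO against 72.5%, 96% and 100% in WT. The adjusted p-values of the 4 falls without overlap were 0.531 to 0.802.

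Of the tiles, the lowest p belonged to chr6:69803001-69804000, 10631 bp from the functional segment Igkv12-44. Its 12 positions gave 70.7%, 69.1% and 73.4% in KO against 74.2%, 80.6% and 83.5% in WT. All KO libraries lay below the WT libraries, the difference was -8.31 points with an adjusted p of 0.219, and the KO mean was the lower one at 11 of the 12 positions. Those positions share fragments and are not independent. The 9 positions of chr6:68981001-68982000, 1338 bp from the V pseudogene Igkv13-82, went the other way, with 92.1%, 94.98% and 95.2% in KO against 88.5%, 87.1% and 89.0% in WT (5.89 points, adjusted p = 0.305).

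**Figure D3:**
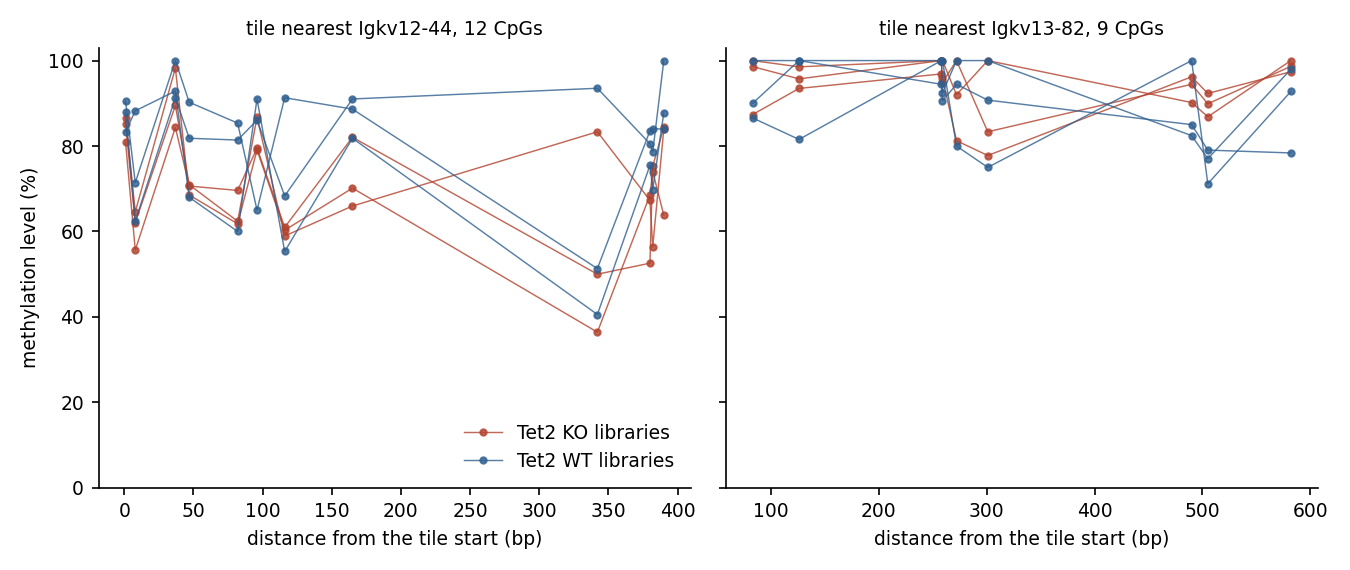
Methylation level (%) of each covered CpG in the tiles nearest Igkv12-44 (12 CpGs) and Igkv13-82 (9 CpGs), by distance from the tile start in bp; each line is 1 library, red for Tet2 KO and blue for Tet2 WT. Lines of both groups cross at most positions, although the summed levels of the tiles do not overlap.

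The tile chr6:70562001-70563000 lay 7561 bp from Igkv3-11. Its 3 positions gave 90.0%, 96.5% and 89.1% in KO against 83.5%, 55.1% and 76.3% in WT (20.2 points, adjusted p = 0.272). Without WT replicate 2 the difference was 11.95 points. The tile chr6:67655001-67656000 lay 44493 bp from Igkv1-135. It had 88.8%, 88.3% and 93.7% in KO against 100%, 95.5% and 98.1% in WT (-7.61 points, adjusted p = 0.351). Both had groups that did not overlap, as did 8 of the 51 tested tiles, 4 in each direction (7.84% each, beside 12.7% above and 3.54% below over the genome).

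Levels under 80% were found at a few stretches of Igk. Positions no more than 500 bp apart formed 122 stretches in both loci, 63 of them with at least 3 positions, and 11 of those 63 had a mean level under 80%. Of the 11, 6 held positions under 10% in all 6 libraries, and without those positions 5 of the 6 were above 80%. An example is 99.6% in place of 66.4% at the stretch 11415 bp from Igkv4-53. That leaves 6 stretches under 80%. Of the 11, the stretch with the most positions was chr6:68369658-68370094, 20217 bp from the V pseudogene Igkv2-105. It held 19 positions with 74.0%, 77.5% and 76.6% in KO against 73.5%, 80.1% and 74.1% in WT. The stretch chr6:68362270-68362493 beside it held 12 positions with 67.2%, 71.8% and 74.6% in KO against 72.4%, 82.8% and 64.9% in WT. The groups overlapped in both. Split in 3 equal lengths, Igk differed by -0.634 points in the J-distal one, 1.02 in the middle one and -0.720 in the J-proximal one (exact p = 0.7, 0.4 and 0.5).

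**Figure D4:**
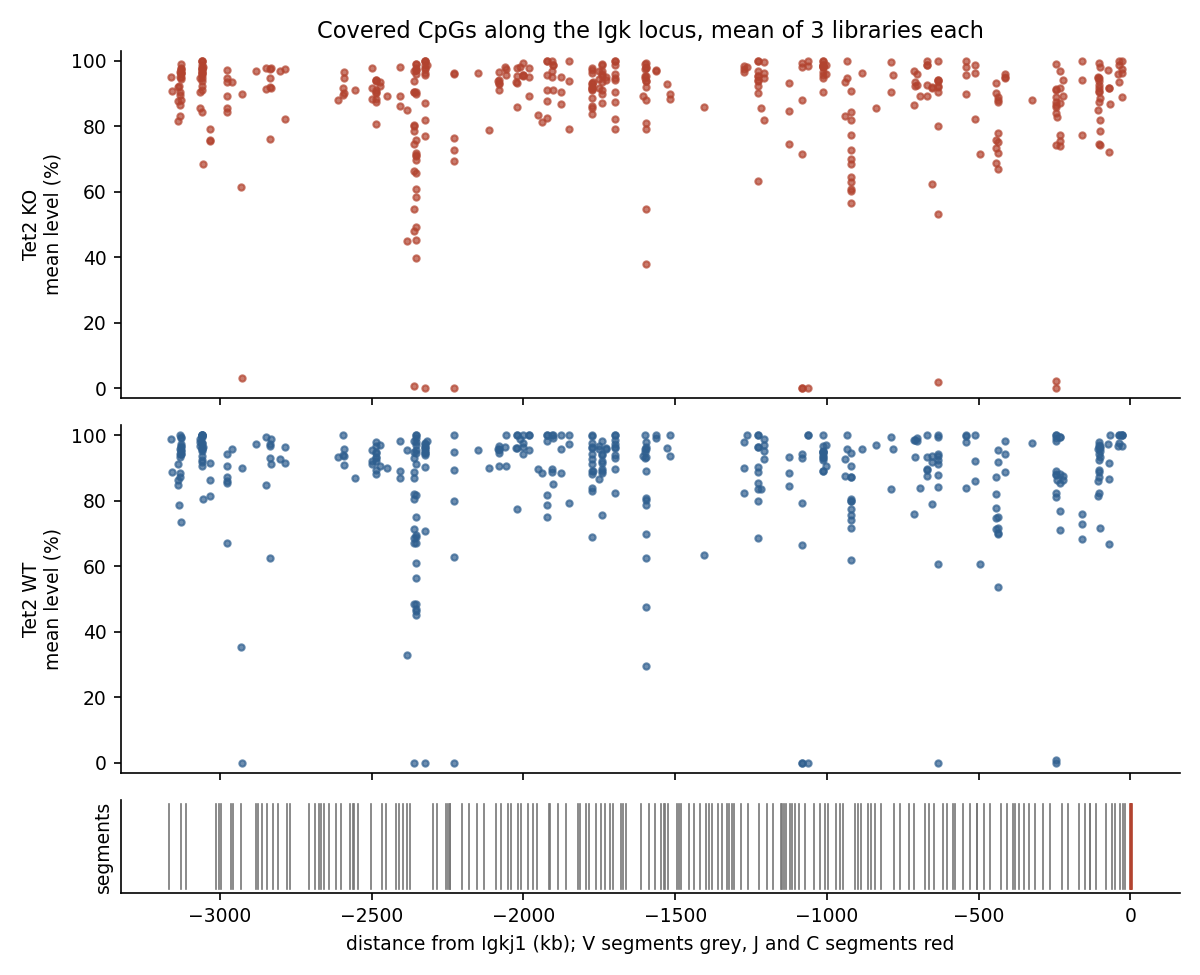
Mean methylation level (%) of the 419 covered Igk CpGs by distance from Igkj1 in kb, Tet2 KO above Tet2 WT, each point the mean of 3 libraries; the bottom row marks V segments in grey and J and C segments in red. Both rows show mostly high levels with dips at similar distances, and no covered CpG lies at the J and C segments.

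The share of the summed coverage falling in each part was compared as a KO over WT ratio. It was 1.004 for the Igk V part (exact p = 1), 1.10 for the Igl V part (exact p = 0.4) and 1.15 for the Igl J and C part (exact p = 0.5), and the libraries of both groups overlapped in each. In no part was a position listed in all KO and no WT libraries, or the reverse.

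Genes that act on the light chain loci from elsewhere were read from a list of 32, of which 26 had tested tiles in the gene or within 5 kb. The list covers recombination and joining factors, factors that bind light chain enhancers, and surrogate light chain genes, and was drawn up with earlier results of these data known, so its count is no independent support. Of 120 tiles, 7 were called higher and 0 lower (5.83%, beside 0.685% higher over the genome). They lay at Ebf1 (3) and Pax5 (1), which specify the B lineage, and at Irf4 (2) and Irf8 (1), which bind light chain enhancers. At the Ebf1 tile with the lowest p, levels were 36.7%, 34.5% and 35.1% in KO against 11.9%, 15.1% and 14.7% in WT (adjusted p = 0.0176). At Irf8 they were 91.0%, 90.9% and 90.8% in KO against 74.3%, 81.6% and 79.8% in WT (adjusted p = 0.0194). The count was 0 with limma on log2 ratios and 0 with unmoderated dispersion, where 0 tiles were called over the whole genome. It was 1, 0 and 1 without KO replicates 1, 2 and 3, and 1, 6 and 11 without WT replicates 1, 2 and 3.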

How the data were processed

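Per the file headers, each deposited file gives, per CpG position and strand, the coverage (a read count) and 2 percent values, for C and for T. The authors aligned reads with Bismark to GRCm38, per the submitters' processing notes; other settings are not given there. Methylated reads were recovered as whole counts at 100% of positions. The members and lists were chosen with earlier results of these data known.

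Levels are percentages, and part means weight positions equally. Part means were compared by exact two-sided permutation of the 6 libraries (smallest p 0.1). CpGs and 1 kb tiles (at least 3 positions) with a mean of 5% to 95% were tested genome-wide with a quasi-binomial model, its dispersion moderated by a Python version of limma's squeezeVar (checked against limma 3.58.1), with Benjamini-Hochberg adjustment. A call needs an adjusted p under 0.05 and 10 points. The named positions are the 8 largest rises and 4 largest falls without overlap between groups, and the 4 tiles of lowest p.

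On simulated reads the tile test recovered most larger changes. The single-CpG test recovered few moderate ones, and where overdispersion grew with depth it gave more false calls than its nominal rate, at positions far deeper than those of the light chain. Python 3.11.15, numpy 2.4.6, pandas 2.3.3 and scipy 1.17.1 were used. Nothing says that replicates are separate mice, so p-values measure the spread between libraries, which may be technical. PCR copies were not told apart, and neighbouring CpGs share reads.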

Additional observations from a re-analysis of the deposited data

How the results depend on the processing

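No light chain CpG or tile was called under any alternative run, including minimums of 20 and 40 reads, added strands, the omission of the highest coverage, unmoderated dispersion, limma, no minimum difference, other tile sizes and each library left out. With all covered features tested, the lowest adjusted p of a light chain CpG was 0.0416 and the 10-point minimum alone withheld a call. The named CpGs and tiles were chosen for groups that do not overlap, so their direction under left-out libraries is no sign of stability. With strands added, 69639083 near Igkv4-54 differed by 9.41 points in place of 31.4. The Igk J and C part has no covered position and so no value under any setting.

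With coverage in at least 2 libraries per group, the Igk V difference was 0.150 points, its log2 coverage ratio -0.0036, and the Igl J and C difference from all CpGs -0.487 points. With strands added, the Igk V log2 coverage ratio was -0.0033. Leaving out 1 library gave -0.536 (without WT replicate 3) to 0.659 points (without WT replicate 2) for Igk V, 0.967 to 2.14 for Igl V and 0.559 to 1.66 for Igl J and C. The same gave -0.0953 to 0.0621 for the Igk V log2 coverage ratio and -0.213 to 0.774 points for Igl J and C minus all CpGs. The causes were not tested. The 7 tiles called at listed genes were 4 with 500 bp tiles and 4 with 2 kb tiles, 0 with unmoderated dispersion, with limma and with all covered features tested, and 0 to 11 with 1 library left out. Calls over the genome rest on the moderated test: 571 tiles were called with it, 0 with limma or unmoderated dispersion and 8 with all covered features tested.

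Same-numbered libraries did not deviate together (correlations 0.0072, -0.0029 and -0.00095). Pairs with different numbers gave -0.00897 to 0.00843. Correlations this small cannot decide whether the numbers pair the samples, and the labels do not say. With a replicate block, 0 light chain CpGs, 0 light chain tiles and 9 tiles at listed genes were called, and the Igk V difference stayed at -0.132 points (sign-flip p at least 0.25 by design). Omitting the 10 positions under 10% in all libraries, an alternative added after seeing the data, gave 0 calls.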

Other observations

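In Igk, 10 positions were under 10% in all 6 libraries. The opposite strand of the same CpG was covered at 5 of them, and its mean level was 88.3% to 95.3%. At the 50 CpGs of the loci covered on both strands, the median difference between strands was 7.58 points.

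Past the end of the Igk region, 17210 bp beyond it, position chr6 70747210 had 96.4%, 88.9% and 96.2% in KO against 54.2%, 70.0% and 68.4% in WT, and its opposite strand was at 0% in all 6 libraries. Of the flanking positions read beside both loci, 70747210 had the largest difference, 29.6 points. At 70747257, 70747258 and 70747305 the groups overlapped, with differences of 4.14, -0.952 and 10.6 points. Position 70747210 lies outside the members and has no test here.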
